A study of Mus musculus with 10 samples.

Results

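The 9 genes described here are Arl5c, Cacna1e, Ly6d, St6gal1, Lrig1, Wdfy4, Scara3, Fam163b and Cldn4, out of 35375 features counted in mouse thymus. Their identifiers in the count table are, in the same order, ENSMUSG00000038352, ENSMUSG00000004110, ENSMUSG00000034634, ENSMUSG00000022885, ENSMUSG00000030029, ENSMUSG00000051506, ENSMUSG00000034463, ENSMUSG00000009216 and ENSMUSG00000047501, and they lie on 8 chromosomes, Wdfy4 and Scara3 both on chromosome 14. They were selected on their levels in these same libraries, namely steep falls in homozygous Usp7 knock-out (KO) thymus against wild type with heterozygous KO levels near those of wild type, and no numerical cut was stated for that choice. Their levels across the genotypes are therefore given as a description, with no test. All 9 were in the count table, and all 9 were among the 19511 features that passed the filter on low counts.

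Total RNA depleted of ribosomal RNA was sequenced from the thymus of 10 mice on a C57BL/6J background, collected at an age of 3 days. The animals were 3 homozygous and 3 heterozygous knock-outs of USP7 in the hematopoietic system and 4 animals that were wild type for USP7 there, and the comparison asks what the loss of one or both copies does to gene expression in this organ. Per the series description, Cre was induced in 2 of the wild types and not in the other 2. The labels do not say which library is which, and the Cre driver is not given in the sources used here.

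Usp7, also called Hausp, encodes a deubiquitinase whose known substrates include MDM2 and p53. The thymus holds mostly immature T cells, with small numbers of B cells, dendritic cells and macrophages within an epithelial and stromal framework. The 9 genes do not form one pathway: their products are known from vesicle traffic, calcium entry, sialylation of surface glycans, restraint of growth factor receptors, antigen presentation and tight junctions. In whole thymus, fewer cells of a type and less RNA per cell cannot be told apart.

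Wild types were sequenced least deeply, with totals of 39.8 to 86.4 M counts, against 90.5 to 97.4 M for heterozygous and 92.3 to 122 M for homozygous KO animals. Levels are given in CPM (counts per 1 M counts, scaled by the TMM method), on which a floor of 3 counts corresponded to 0.026 to 0.0737. Markers of double-positive thymocytes, the main cell of this tissue, summed to 10800 CPM or more in every library. Xist exceeded 100 CPM in 1 animal of the homozygous KO group, 0 of the heterozygous group and 3 of the wild types, so sex was unevenly spread over the genotypes.

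The targeted gene kept far more of its signal than any of the 9 genes. Usp7 was counted at 303, 422 and 408 CPM in homozygous KO libraries 1, 2 and 3, at 472, 516 and 516 CPM in heterozygous KO, and at 676, 670, 594 and 589 CPM in wild types 1 to 4. The 3 groups did not overlap, with homozygous KO lowest and wild type highest. Relative to the wild-type mean, 47.8%, 66.6% and 64.5% remained in the homozygous KO libraries and 74.6%, 81.5% and 81.6% in the heterozygous ones. With edgeR, homozygous KO differed from wild type by −0.74 ± 0.11 (SE) on the log2 scale (adjusted p = 0.000525), and heterozygous KO by −0.34 ± 0.11 (adjusted p = 0.608). Counts per gene do not separate deleted from remaining exons, and cells outside the hematopoietic system are not targeted in this model. The part of remaining exons and of untargeted cells in the Usp7 residual was not tested.

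In homozygous KO thymus the 9 genes kept between 2.86% (Fam163b) and 18.8% (Cldn4) of their wild-type mean CPM, with a median of 9.87%. In heterozygous KO they kept between 66.0% (Lrig1) and 101% (Ly6d), with a median of 80.8%. The Lrig1 share was closer to wild type within each set of animal numbers, as given with its values, with 1 library on one side. With Xist in the fit, its heterozygous log2 fold change went from −0.60 to −1.2, further from wild type. On the log2 scale the median fold change of the 9 genes was −3.33 for the homozygous and −0.31 for the heterozygous KO. Over all tested genes it was −0.0149 and −0.00704. Near loss describes Fam163b and Scara3, whereas Wdfy4 and Cldn4 kept 13.3% to 19.6% in each homozygous KO library.

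**Figure D1:**
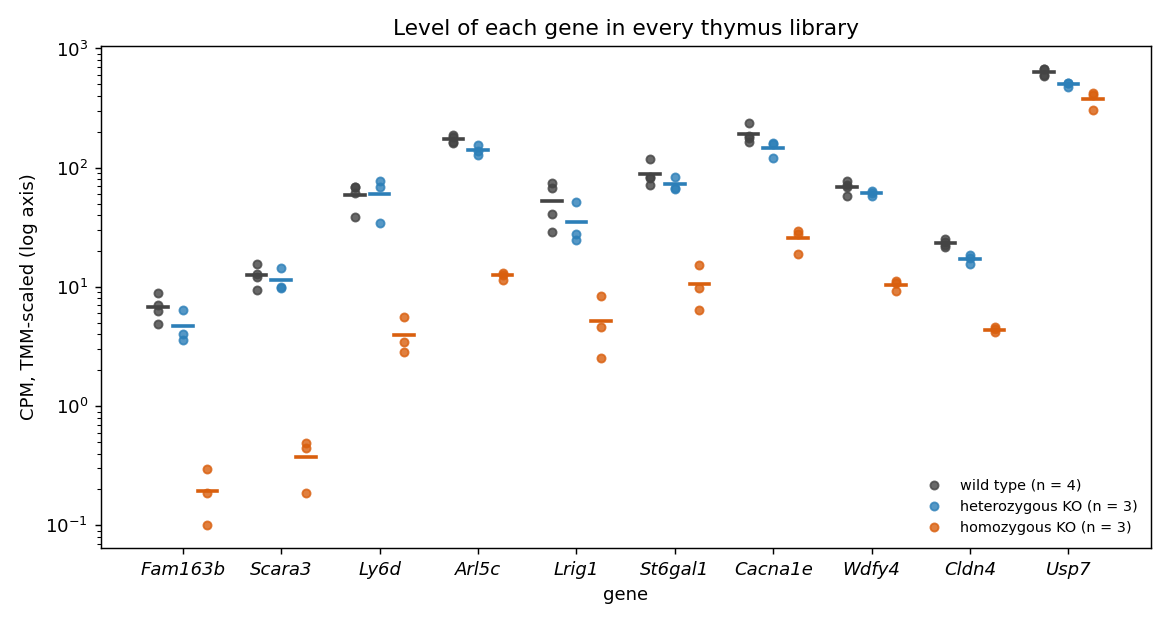
Level of each gene in every library, in TMM-scaled CPM on a log axis, where points are libraries and bars are group means (wild type n = 4, heterozygous KO n = 3, homozygous KO n = 3). For all 9 genes the homozygous KO points lie below every other library, whereas Usp7 drops from a mean of 633 to 377 CPM.

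Each of the 9 genes was lower in every homozygous KO library than in any heterozygous KO or wild-type library, a pattern that 12.0% of the tested genes showed. In edgeR's fit over the whole table, 13.2% of tested genes were called lower and 12.5% higher in homozygous KO against wild type at an adjusted p under 0.05, 9.50% were called lower in homozygous against heterozygous KO, and 0% were called lower in heterozygous KO against wild type. The last count was 0 of 19511 with edgeR's quasi-likelihood test, against 43 with DESeq2, and 1421 genes had an unadjusted p under 0.05 in either direction. Scaling by library totals alone raised the share of lower calls among all homozygous KO calls from 51.4% to 71.0%. Nothing is read from these shares about the 9 genes, because the contrasts chose them.

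Among the genes tied to traffic and ion entry, Arl5c had the tighter levels and Cacna1e the highest wild-type CPM. Arl5c, an ADP-ribosylation-factor-like small GTPase on chromosome 11, was at 12.7, 11.5 and 13.2 CPM in homozygous KO, 129, 137 and 156 CPM in heterozygous KO, and 161, 165, 189 and 180 CPM in wild type. All 3 genotypes were separate, with the heterozygous KO libraries just under the wild types. The means were 12.4 ± 0.879 (SD, n = 3), 140 ± 14.0 (n = 3) and 174 ± 12.7 CPM (n = 4), so that 7.15% was left in homozygous KO and 80.8% in heterozygous KO. On the log2 scale these differences were −3.81 ± 0.09 (SE) and −0.31 ± 0.08.

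Cacna1e encodes the pore-forming subunit of R-type voltage-gated calcium channels and lies on chromosome 1. It was at 19.0, 29.7 and 27.9 CPM in homozygous KO, 160, 120 and 157 CPM in heterozygous KO, and 164, 176, 185 and 236 CPM in wild type. Homozygous KO library 1 was the lowest of all 10, which no other of the 9 genes showed. All heterozygous KO libraries lay below all wild types, and 13.4% was left in homozygous KO and 76.6% in heterozygous KO.

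The genes best known from lymphocyte surfaces and their progenitors were Ly6d and St6gal1. Ly6d, a glycolipid-anchored Ly6 protein that marks lymphoid progenitors entering the B-cell lineage, was at 3.46, 2.87 and 5.61 CPM in homozygous KO, 77.4, 68.6 and 34.6 CPM in heterozygous KO, and 68.7, 69.4, 38.5 and 61.4 CPM in wild type. Heterozygous KO library 3 and wild type 3 were the low members of their groups, and the heterozygous and wild-type ranges overlapped fully. The heterozygous KO mean of 60.2 ± 22.6 CPM (n = 3) was the only one of the 9 that did not lie below its wild-type mean, which was 59.5 ± 14.4 CPM (n = 4). Homozygous KO kept 6.69%.

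St6gal1 encodes the Golgi enzyme that adds sialic acid in α2,6 linkage to galactose on N-glycans, the ligand of the B-cell lectin CD22. It was at 15.4, 9.85 and 6.38 CPM in homozygous KO, 83.4, 66.5 and 67.7 CPM in heterozygous KO, and 83.8, 82.6, 119 and 71.1 CPM in wild type. Wild type 3 was the high library, and the heterozygous KO range overlapped the wild-type range. In homozygous KO 11.8% was left and in heterozygous KO 81.3%.

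Lrig1 and Wdfy4, which restrain receptors and serve antigen presentation, differed in how much their animals varied. Lrig1, a transmembrane protein that lowers ErbB receptor levels, was at 8.43, 4.62 and 2.55 CPM in homozygous KO, 51.7, 27.6 and 24.9 CPM in heterozygous KO, and 67.2, 41.0, 73.7 and 28.6 CPM in wild type. Its libraries spread widely in every genotype, and the highest homozygous KO library stood at 3.31 times the lowest. The heterozygous KO mean was 34.7 ± 14.7 CPM (SD, n = 3) and the wild-type mean 52.6 ± 21.3 CPM (n = 4), and 9.87% was left in homozygous KO and 66.0% in heterozygous KO. Among animals numbered 44 to 51 the heterozygous library was at 51.7 CPM against a wild-type mean of 60.6 CPM, and among those numbered 56 to 63 the heterozygous mean was 26.3 CPM against 28.6 CPM in the one wild type.

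Wdfy4 encodes a BEACH-domain protein that type 1 dendritic cells need for cross-presentation. It was at 11.3, 10.7 and 9.18 CPM in homozygous KO, 63.3, 57.7 and 61.3 CPM in heterozygous KO, and 69.3, 77.1, 71.5 and 58.4 CPM in wild type. The 3 homozygous KO libraries were close together, and wild type 4 lay within the heterozygous KO range. Between 13.3% and 16.3% was left in the homozygous KO libraries, and 88.0% in heterozygous KO on average.

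The lowest residuals belonged to Scara3, a member of the scavenger receptor family, and to Fam163b. Scara3 was at 0.495, 0.186 and 0.443 CPM in homozygous KO, 14.4, 9.86 and 9.99 CPM in heterozygous KO, and 9.45, 12.0, 12.8 and 15.7 CPM in wild type. Fam163b was at 0.295, 0.186 and 0.0998 CPM in homozygous KO, 6.42, 3.56 and 4.02 CPM in heterozygous KO, and 8.84, 7.08, 6.26 and 4.89 CPM in wild type. For both genes the heterozygous and wild-type ranges overlapped while the homozygous KO libraries were far below.

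These residuals rested on few reads, although all were above the floor of 3 counts. Scara3 had 57, 19 and 40 counts and Fam163b 34, 19 and 9 counts in homozygous KO libraries 1, 2 and 3. The wild-type mean was 33.3 times the homozygous KO mean for Scara3 and 34.9 times for Fam163b, beside 1.68 times for Usp7. In heterozygous KO, Scara3 kept 91.3% and Fam163b 69.0%.

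Cldn4, a claudin of epithelial tight junctions, kept the most. It was at 4.59, 4.15 and 4.43 CPM in homozygous KO, 17.5, 15.5 and 18.5 CPM in heterozygous KO, and 21.8, 22.5, 23.9 and 25.3 CPM in wild type. As with Arl5c, the genotypes formed 3 separate and narrow ranges. The means were 4.39 ± 0.225 (SD, n = 3), 17.2 ± 1.55 (n = 3) and 23.4 ± 1.56 CPM (n = 4), leaving 18.8% and 73.5%, and the wild-type mean was 5.33 times the homozygous KO mean.

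**Figure D2:**
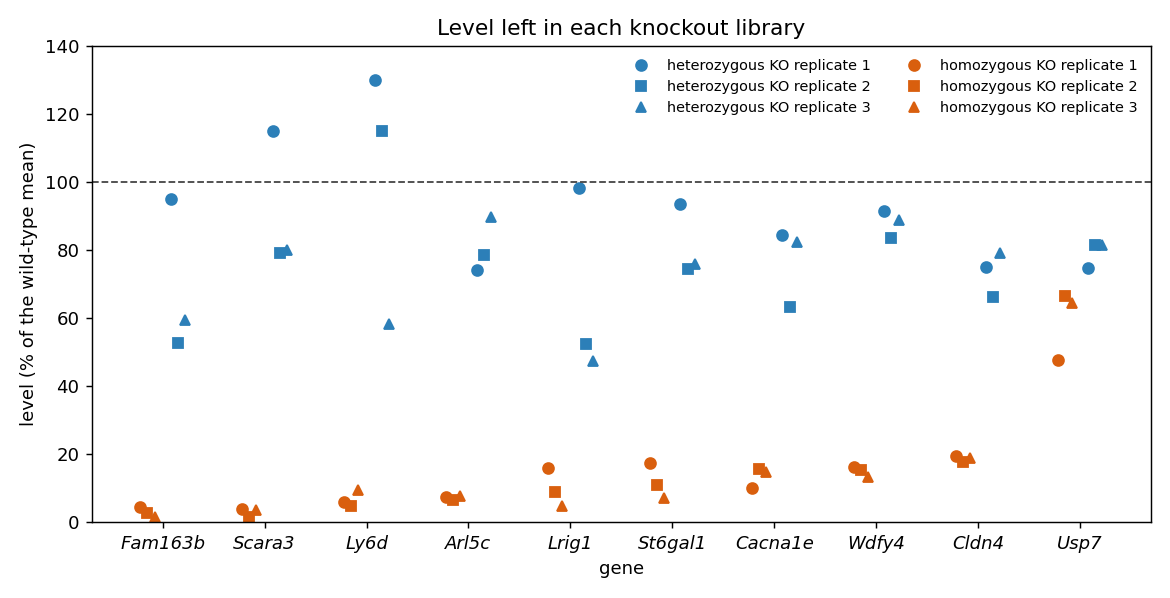
Level of each gene in each knock-out library as a percentage of its wild-type mean, genes ordered by what was left in homozygous KO, with the dashed line at 100%. Homozygous KO points rise from Fam163b (1.47% to 4.36%) to Cldn4 (17.7% to 19.6%), below those of Usp7 (47.8% to 66.6%), and heterozygous KO points spread from 47.4% for Lrig1 to 130% for Ly6d.

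Ordered by what was left in homozygous KO, the genes ran Fam163b, Scara3, Ly6d, Arl5c, Lrig1, St6gal1, Cacna1e, Wdfy4 and Cldn4, followed by Usp7. In 6 of the 8 neighbouring pairs among the 9 genes the library ranges overlapped, so the order within them is not resolved. The ranges were separate between Scara3 (1.49% to 3.96%) and Ly6d (4.82% to 9.42%) and between Wdfy4 (13.3% to 16.3%) and Cldn4. Usp7 was separate from all 9.

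Heterozygous KO levels lay below every wild-type library for 3 of the 9 genes, Arl5c, Cacna1e and Cldn4, where 4.27% of tested genes did so. The other 6 genes overlapped with wild type. Since heterozygous levels entered the choice of genes, this split is a description as well.

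The genes differed in how steady they were between animals of one genotype. The coefficient of variation in homozygous KO was 5.13% for Cldn4, 7.07% for Arl5c and 10.4% for Wdfy4. It was 57.4% for Lrig1, 50.6% for Fam163b, 44.2% for Scara3 and 43.3% for St6gal1. Wild type showed the same steady genes, with 6.68% for Cldn4, 7.32% for Arl5c and 11.3% for Wdfy4, and Lrig1 was again the most variable at 40.6%. Homozygous KO library 1 was the highest of its group for 6 of the 9 genes, whereas it was the lowest of its group for Usp7.

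The 9 genes also started from different wild-type levels. Per kilobase of annotated exon, wild-type levels were 83.8 CPM for Arl5c and 80.0 CPM for Ly6d, next to 81.5 CPM for Usp7. St6gal1 followed at 18.1 CPM per kilobase, Cldn4 at 12.9 and Lrig1 at 9.42. Cacna1e was at 7.54 CPM per kilobase, Wdfy4 at 6.55, Scara3 at 3.47 and Fam163b at 2.29, so the genes with the smallest residuals were also the lowest in wild type.

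The animal numbers in the titles fall into 44 to 51 and 56 to 63, a split that the choice of genes did not use. With genotype in the fit, 2 of the 9 genes were called between these numbers, where 6.77% of all tested genes were called in either direction. Lrig1 was lower in the higher-numbered animals by a log2 difference of −1.09 ± 0.19 (SE, edgeR adjusted p = 0.00893) and Fam163b by −0.74 ± 0.17 (adjusted p = 0.0297). Within each genotype every higher-numbered animal was below the lower-numbered ones for both genes, which also held for St6gal1 and Wdfy4. The share of all tested genes with this ordering was not counted, so nothing is read from it. The labels do not say what the numbers stand for.

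Both calls crossed the threshold on leaving out single libraries, while the log2 difference stayed between −1.19 and −0.87 for Lrig1 and between −0.85 and −0.45 for Fam163b over the 15 alternatives. Lrig1 was called in 12 of 15 alternative fits, over which its adjusted p ran from 0.000294 to 0.775, and it was missed without homozygous KO library 1 (log2 difference −1.03, edgeR adjusted p = 0.0505) and without wild type 4 (−1.10, 0.0534). Fam163b was called in 7 of 15, with adjusted p values of 0.000531 to 0.841, and was missed on leaving out homozygous KO 1, any heterozygous KO, or wild type 1, 2 or 4 (0.0511 to 0.0965).

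The remaining 7 genes did not pass. St6gal1 was next, at −0.55 ± 0.15 (SE, edgeR adjusted p = 0.0629), then Wdfy4 at −0.20 ± 0.07 (0.0975) and Cacna1e at 0.27 ± 0.13 (0.242). Arl5c, Ly6d, Scara3 and Cldn4 had log2 differences from −0.13 to 0.07 and adjusted p values from 0.585 to 0.95. Usp7 itself differed by 0.14 ± 0.09 (0.394).

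**Figure D3:**
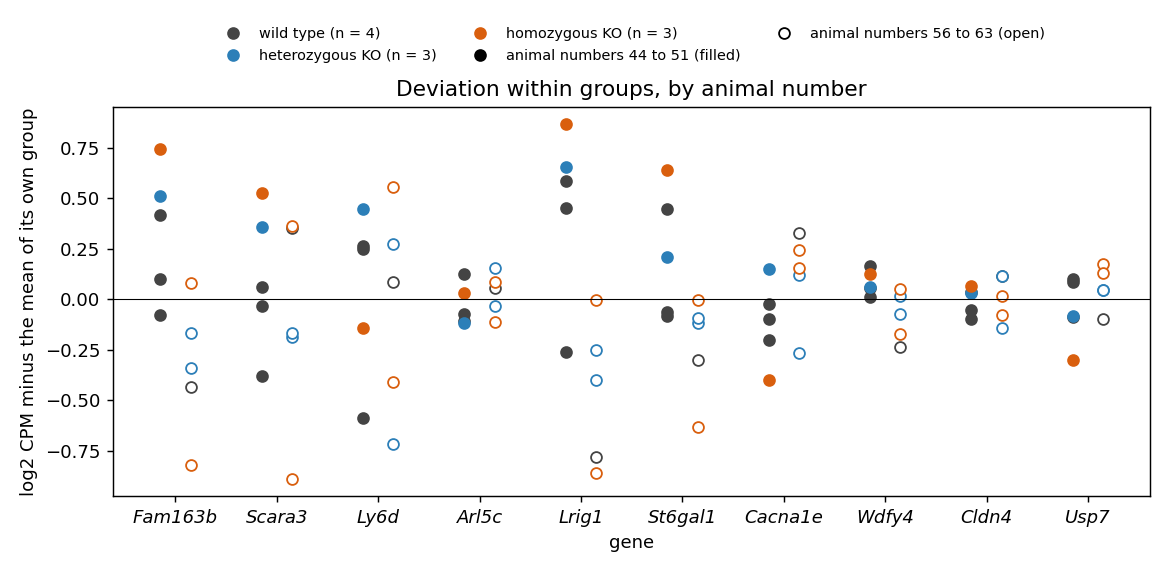
Deviation of each library from its own genotype mean, in log2 CPM, for animals numbered 44 to 51 (filled) and 56 to 63 (open), coloured by genotype. For Lrig1 (difference −1.09) and Fam163b (−0.74) the open points lie mostly below the filled ones, whereas Arl5c and Cldn4 stay near 0 in every library.

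Within both sets of animal numbers all 9 genes were lower in homozygous KO than in wild type. This had to follow, because each homozygous KO library lay below every wild-type library for genes chosen in that way, so only the sizes are described. Differences were taken between genotype means of log2 CPM, with 0.5 added to each count. Among animals 44 to 51 (1 homozygous KO, 3 wild types) the difference ran from −4.61 for Fam163b to −2.31 for Cldn4, with −2.80 for Lrig1. Among animals 56 to 63 (2 homozygous KO, 1 wild type) it ran from −5.75 for Scara3 to −2.56 for Cldn4 and Wdfy4, with −3.06 for Lrig1. Usp7 differed by −1.09 and −0.51 in the 2 sets. With 1 library on one side these values have no replicate check of their own.

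The 4 wild types carry 2 title forms, with 1 or 2 wt words, and neither form is tied to Cre by the labels. For wild types 3 and 4, whose titles have wt once, the count table's headers read wt and het, and what het stands for there is not given. None of the 9 genes was called between the forms, and 0% of all tested genes were (0 of 19511 with edgeR, 12 with DESeq2, 651 with an unadjusted p under 0.05). Their log2 differences ran from −0.51 for Fam163b to 0.41 for Scara3, and none of the 9 had an unadjusted p under 0.05. The SE of these differences ran from 0.10 for Arl5c to 0.56 for Lrig1.

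Families and partners of the 9 genes were listed by family, though with earlier results of these data known. These relatives were tested in the whole-table fit of homozygous KO against wild type. Of 91 relatives, 66 passed the filter on low counts. A share of 31.8% (21 genes) was called lower and 9.09% (6 genes) higher, beside 13.2% and 12.5% of all tested genes, and their median log2 fold change was −0.21. None of them was called in heterozygous KO.

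Calcium channel subunits and sialyltransferases held the most lower calls. Beside Cacna1e, 4 of 7 tested pore-forming subunits were called lower and none higher. Cacna1c, an L-type channel gene, was at 1.16, 1.89 and 1.80 CPM in homozygous KO and at 4.51 to 5.78 CPM in wild type (log2 fold change −1.66 ± 0.21 SE, edgeR adjusted p = 0.000232). The ranges were separate for Cacna1c, and Cacna1b (−1.77 ± 0.25, edgeR adjusted p = 0.00045) and Cacna1d (−1.24 ± 0.18, 0.000584) fell as well. Cacna1i was called lower too (edgeR adjusted p = 0.0475), but near the counting floor and with overlapping ranges. It was at 0 to 0.265 CPM in wild type and had 3 counts or fewer in every homozygous KO library. Of the auxiliary subunits 3 of 6 fell, led by Cacnb1 (−2.36 ± 0.15, 3.16e-06), with Cacna2d4 at −0.63 and Cacnb3 at −0.47.

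Among 15 tested sialyltransferases other than St6gal1, 6 fell and 1 rose. St8sia6 fell furthest, from 2.16 to 3.87 CPM in wild type to 0.225 to 0.417 CPM in homozygous KO (log2 fold change −3.31 ± 0.29 SE, edgeR adjusted p = 1.75e-05). St3gal1, which caps core 1 O-glycans, was the most abundant of those that fell, at 51.4, 52.9 and 50.3 CPM against 78.5 to 99.3 CPM (−0.77 ± 0.08, 4.16e-05). St3gal2 (−1.37), St3gal6 (−1.44), St6galnac3 (−1.90) and St6galnac6 (−1.55) also fell, and St3gal4 rose by 0.27 ± 0.06 (0.00761).

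Other families went different ways from the gene they surround. Lrig3, the paralog of Lrig1, was at 2.42 ± 1.01 CPM (SD, n = 4) in wild type and rose to 11.1 ± 1.10 CPM (n = 3) in homozygous KO (log2 fold change 2.19 ± 0.31 SE, edgeR adjusted p = 0.000451), while Lrig2 did not pass except with library totals as the scale. The 3 tested class A scavenger receptors rose, each from under 1 CPM in wild type. Msr1 rose by 2.75 ± 0.37 (edgeR adjusted p = 0.000348), Marco by 3.60 ± 0.59 (0.00126) and Colec12 by 2.12 ± 0.41 (0.00322). Of the paralogs of Arl5c, Arl5b rose by 0.18 ± 0.06 (0.0429), a call lost with library totals as the scale, and Arl5a did not pass (0.28).

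Of the Ly6 genes 3 of 6 fell, namely Ly6a (6.58 to 7.37 CPM in wild type, 1.25 to 2.34 CPM in homozygous KO, edgeR adjusted p = 6.46e-05), Ly6i (log2 fold change −1.78 ± 0.30 SE, 0.00138) and Ly6c2 (−1.50 ± 0.35, 0.00989). Ly6e, by far the most abundant of them, was at 803 to 879 CPM in homozygous KO and 759 to 826 CPM in wild type and did not pass (0.242). Reads of such closely related genes may be shared, so their counts are uncertain. Of the 10 tested claudins 2 fell, Cldn1 (−2.01 ± 0.27, edgeR adjusted p = 0.000385) and Cldn2 (−2.63 ± 0.73, 0.0219). Cldn2 was low throughout, at 0.172 to 0.9 CPM in wild type and 0.0998 CPM or less in homozygous KO. Among receptors that LRIG1 restrains, Erbb3 (−1.44 ± 0.25, edgeR adjusted p = 0.00164) and Ret (−2.25 ± 0.75, 0.0483) fell. Ret was near the counting floor, at 0.0982 to 0.278 CPM in wild type and 0.0685 CPM or less in homozygous KO. In the list of WDFY and BEACH-domain genes 1 of 9 fell, Wdfy2, a FYVE-domain protein without a BEACH domain (−0.82 ± 0.14, 0.00159). Fam163a did not pass (log2 fold change 0.58).

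**Figure D4:**
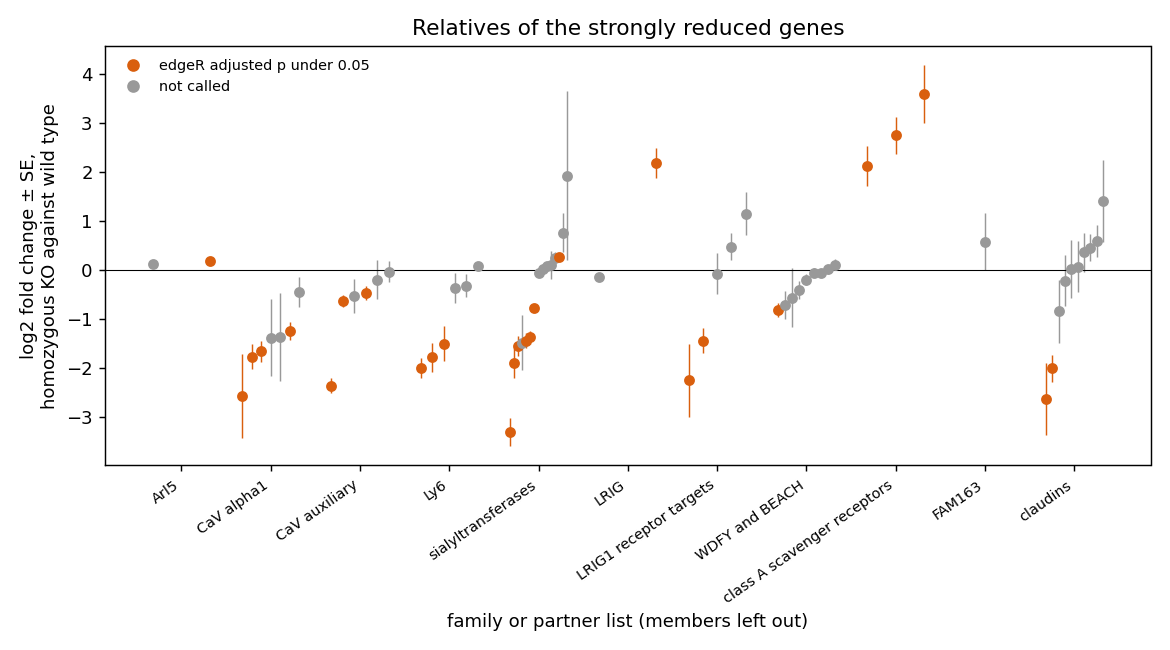
Log2 fold change with its standard error, homozygous KO against wild type, for the tested relatives in each family or partner list, with orange points called by edgeR at an adjusted p under 0.05. Lower calls gather in calcium channels, Ly6 genes and sialyltransferases, and the 3 tested scavenger receptors lie between 2.12 and 3.60.

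The genes next to the 9 on the chromosome did not move as one. Of 18 nearest protein-coding neighbours 13 were tested, of which 5 were called lower and 3 higher. Both neighbours of Arl5c fell, Cacnb1 from 17.4 to 21.6 CPM in wild type to 2.87 to 4.57 CPM (counted above among calcium channel subunits) and Plxdc1 from 74.1 to 75.8 CPM to 31.2 to 42.4 CPM (log2 fold change −1.02 ± 0.10 SE, edgeR adjusted p = 3.05e-05). Next to Fam163b, Adamtsl2 fell by 2.96 ± 0.30 on the log2 scale (4.41e-05), from 3.94 to 7.39 CPM in wild type to 0.44 to 0.898 CPM.

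Lynx1 fell next to Ly6d (log2 fold change −1.49 ± 0.39 SE, edgeR adjusted p = 0.0172) and Mettl27 next to Cldn4 (−0.38 ± 0.10, 0.0156). Ccdc25 (0.37 ± 0.07, edgeR adjusted p = 0.00268) and Clu (1.45 ± 0.43, 0.0296) rose beside Scara3. Beside Lrig1, Magi1 was called higher (2.06 ± 0.69, 0.0482), a call lost with library totals as the scale. Magi1 was at 13.3 CPM in homozygous KO library 1. Libraries 2 and 3, at 1.69 and 1.14 CPM, lay within the wild-type range of 0.794 to 1.87 CPM. With only the wild types of either title form as controls, 4 of the 13 were called. Cldn3, the claudin next to Cldn4, was at 0.255 CPM or less in every library.

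For 3 of the 9 genes, reads may come from a gene on the opposite strand, since whether counting used strand is not given in the sources used here. BC106179 overlaps St6gal1 and differed by a log2 fold change of −3.79 (edgeR adjusted p = 0.000127), Lrrc18 overlaps Wdfy4 (−1.68, 0.0254), and Slc25a26 overlaps Lrig1 (−0.29, 0.243). BC106179 averaged 0.904 CPM in wild type and 0.0633 CPM in homozygous KO, where St6gal1 averaged 89.2 and 10.6 CPM. Lrrc18 averaged 0.362 CPM in wild type and 0.112 CPM in homozygous KO, where Wdfy4 averaged 69.1 and 10.4 CPM. The part of BC106179 and Lrrc18 in the St6gal1 and Wdfy4 residuals was not tested. Slc25a26 was at 4.31, 6.64 and 5.52 CPM in homozygous KO libraries 1, 2 and 3. Lrig1 was at 8.43, 4.62 and 2.55 CPM there (mean 5.20 ± 2.98 CPM, SD, n = 3). The part of Slc25a26 in the Lrig1 residual was not tested.

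Cell type marker lists differed in whether and how they moved in homozygous KO. Mature dendritic cell markers summed to 78.3 to 125 CPM in wild type and 10.9 to 22.7 CPM in homozygous KO, and all 5 fell, among them Ccl22 (log2 fold change −4.28 ± 0.28 SE, edgeR adjusted p = 3.32e-06). Type 1 dendritic cell markers summed to 44.7 to 54.9 and 21.8 to 32.2 CPM, with 5 of 6 lower. Of these, Irf8 was at 6.44 to 7.49 CPM in homozygous KO and 19.4 to 22.4 CPM in wild type (−1.58 ± 0.09, 1.22e-06). Their part in the Wdfy4 result was not tested.

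B-cell markers fell in 7 of 10 cases beside Ly6d and St6gal1, and Blk was called lower as well with library totals as the scale (log2 fold change −0.80). Cd79b, a signalling chain of the B-cell receptor, had a wild-type mean of 19.0 ± 2.77 CPM (SD, n = 4) that fell to 6.10 ± 1.48 CPM (n = 3) in homozygous KO (log2 fold change −1.64 ± 0.17 SE, edgeR adjusted p = 6.27e-05), and Ms4a1, at 2.92 to 8.04 CPM in wild type, had 3 counts or fewer in every homozygous KO library. The summed level was 300 to 344 CPM in homozygous KO and 337 to 402 CPM in wild type, most of it Ighm, which did not pass (0.835). The part of B cells in the Ly6d and St6gal1 results was not tested.

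Among T-lineage lists, double-positive thymocyte markers summed to 10800 to 11400 CPM in homozygous KO and 13300 to 14400 CPM in wild type, with 3 of 10 lower and 2 higher. With library totals as the scale Rag2 (log2 fold change −0.64) and Themis (−0.22) were called lower too and the higher call of Cd8a was lost (0.17), which gave 5 lower and 1 higher. Mature single-positive markers had 5 of 6 lower (160 to 217 against 265 to 387 CPM) and double-negative markers 4 of 6 lower (93.3 to 350 against 222 to 333 CPM), among them Bcl11a (log2 fold change −3.16 ± 0.23 SE, edgeR adjusted p = 5.36e-06). In plasmacytoid dendritic cell markers 1 of 6 fell and 1 rose (81.7 to 123 against 93 to 120 CPM), the one that fell being Siglech, with 3 counts or fewer in every homozygous KO library.

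Epithelial markers were measured beside Cldn4. None of 6 general thymic epithelial markers was called (54.3 to 143 CPM in homozygous KO, 59.6 to 84.8 CPM in wild type), and none of 5 cortical ones (79.9 to 140 against 80 to 121 CPM). Of 5 medullary markers 2 fell and 2 rose (10.4 to 34.8 against 4.84 to 8.41 CPM): Aire fell by 2.37 ± 0.39 on the log2 scale (edgeR adjusted p = 0.00129) and Krt5 rose by 2.77 ± 0.40 (0.000552). The part of epithelial cells in the Cldn4 result was not tested.

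Neutrophil and stromal lists were higher or level. All 5 neutrophil markers rose (51.4 to 280 CPM in homozygous KO against 5.56 to 21.4 CPM in wild type), as did 3 of 5 fibroblast markers (8.1 to 25.3 against 3.67 to 10.5 CPM) and 1 of 4 endothelial markers (151 to 159 against 144 to 157 CPM), and none of 4 erythroid markers passed (94.8 to 887 against 135 to 686 CPM). None of the marker lists held a called gene in heterozygous KO against wild type. There the summed levels were 85.8 to 115 CPM for mature, 46.4 to 51.5 for type 1 and 94.3 to 110 for plasmacytoid dendritic cells and 349 to 370 for B cells. They were 12800 to 13500 CPM for double-positive, 220 to 270 for double-negative and 294 to 306 for mature single-positive thymocytes. General, cortical and medullary epithelial lists gave 58.3 to 110, 81.6 to 160 and 5.39 to 8.25 CPM, and neutrophil, fibroblast, endothelial and erythroid lists 5.31 to 10.6, 3.43 to 5.04, 136 to 145 and 77.3 to 220 CPM.

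**Figure D5:**
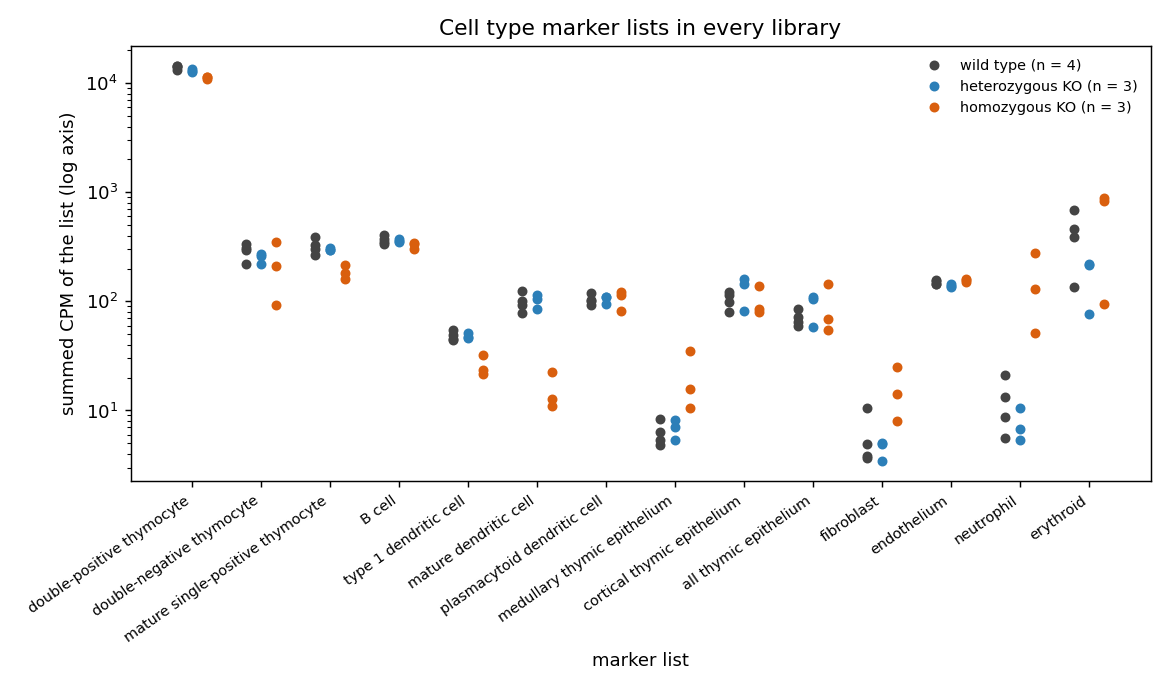
Summed CPM of each cell type marker list in every library, on a log axis, coloured by genotype. Mature dendritic cell markers drop to 10.9 to 22.7 CPM in homozygous KO, neutrophil markers reach 51.4 to 280 CPM there, and general thymic epithelial markers overlap between genotypes.

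Tlr9, Ankrd55, Unc5cl and Kctd17 had the pattern most like the median of the 9 genes over the 10 libraries, by root mean square distance of log2 CPM relative to each gene's wild-type mean. The distances were 0.142, 0.184, 0.273 and 0.279. Tlr9, a receptor for unmethylated CpG DNA, was at 0.486, 0.518 and 0.299 CPM in homozygous KO, 3.42 to 3.79 CPM in heterozygous KO and 3.88 to 4.85 CPM in wild type. Arl5c, at 0.254, was the nearest to that median among the 9 genes, and Fam163b, at 1.01, the farthest.

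Promoter sequence was compared because the study asks how USP7 relates to E-proteins, which bind the E-box motif CANNTG. RefSeq windows of 250 bases before a start (GRCm38.p6) were matched by symbol for 6 of the 9 genes, as 8 windows of which St6gal1 had 3. Arl5c, Ly6d and Scara3 were not matched. Shown are windows that do not overlap an annotated exon of their own gene, namely those of Cldn4, Wdfy4 and, as the first of its 3, St6gal1, with every CANNTG in capitals.
Cldn4, chr5:134946935-134947184, minus strand: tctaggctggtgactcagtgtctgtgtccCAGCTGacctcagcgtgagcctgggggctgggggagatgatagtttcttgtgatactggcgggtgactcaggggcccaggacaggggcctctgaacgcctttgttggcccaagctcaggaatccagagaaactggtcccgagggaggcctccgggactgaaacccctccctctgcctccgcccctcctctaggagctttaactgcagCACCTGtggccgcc
Wdfy4, chr14:33185067-33185316, minus strand: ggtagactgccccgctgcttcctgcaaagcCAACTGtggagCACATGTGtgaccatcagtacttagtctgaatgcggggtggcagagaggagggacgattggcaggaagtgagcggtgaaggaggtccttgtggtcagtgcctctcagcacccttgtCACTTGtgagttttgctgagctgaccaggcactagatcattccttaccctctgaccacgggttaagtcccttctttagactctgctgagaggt
St6gal1, chr16:23224490-23224739, plus strand: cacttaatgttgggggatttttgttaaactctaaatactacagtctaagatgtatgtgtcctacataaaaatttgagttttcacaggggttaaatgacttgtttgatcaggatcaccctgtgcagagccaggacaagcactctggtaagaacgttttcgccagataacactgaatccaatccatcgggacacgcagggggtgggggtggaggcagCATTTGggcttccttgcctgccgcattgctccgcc

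The E-box CANNTG, searched on both strands, occurred in 5 of the 8 windows, covering 4 of the 6 genes, and in 66.2% of all 32851 windows. In the sequences above Cldn4 held matches at 221 and 14 bases before the start, which are CAGCTG (13.0% of all windows) and CAGGTG read on the other strand (17.2%), both of which are also CANNTG. Wdfy4 held 4 matches, of which a pair overlaps, and the St6gal1 window held 1.

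Other motifs, also searched on both strands, occurred in 0 to 5 of the 8 windows. TGTGGT, a RUNX motif, was found for Wdfy4 alone (14.0% of all windows) and CTTTGA, a TCF1 and LEF1 motif, for Fam163b alone (13.8%). The GC box GGGCGG occurred in 3 of the 8 windows (32.7% of all) and CCAAT in 5 of 8, from 3 genes (33.8%). TATAAA (12.4% of all) and the ETS motif CCGGAA (12.0%) were in none of the 8, which says only that these letters are not in these windows. The ratio of observed to expected CpG was 0.82 for Fam163b and 0.85 for Lrig1, and 0.29 for Cldn4 and 0.27 for Wdfy4, beside a median of 0.37 over all windows.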

How the data were processed

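Raw read counts per gene for 10 thymus libraries were deposited by the authors as a single table without normalization. Per the labels' processing notes, CASAVA, STAR 2.4.1d and HTSeq 0.6.1p1 and the build NCBIM37 (mm9) are named. The study's methods describe a BWA-based mapping to a human reference and name no mouse libraries. The strand setting is not given in the sources used here.

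Columns were assigned to samples by the animal and library numbers that names and titles share, and groups were taken from the titles, also for wild types 3 and 4, whose columns carry the word het. Of 35375 features, 908 carry no Ensembl identifier and took 1.74% to 2.29% of the counts. Symbols, exon lengths and neighbours were taken from GENCODE for GRCm38, matching 92.4% of tested features, and may differ from the annotation used for counting. The 9 genes, the relatives and the marker lists were chosen with earlier results of these data known.

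edgeR 4.0.16 (R 4.3.3) was used with TMM scaling, filterByExpr and the quasi-likelihood test, in 1 fit over 10 libraries (common biological coefficient of variation 0.207), and a call required an adjusted p (Benjamini-Hochberg) under 0.05. SE of a log2 fold change is its size divided by the square root of F. The animal-number term was fitted beside genotype, and the wild-type title forms as separate groups. Deeper libraries resolve lower levels, and counting floors cover counting error only. DESeq2 1.42.0, other scalings, no filter, each library left out, a replicate block, an Xist covariate and either title form of the wild types alone were alternatives. From relatives, neighbours and marker lists, the genes named are those called, at most 4 per list with the smallest adjusted p, with a few others singled out after their values were seen. The 4 genes of like pattern are the nearest with at least 1 CPM in wild type, with a prior of 0.5. Some items are not reported here. The fitting code was tested on simulated data, and none of the 12 pairs of libraries within a genotype agreed within sampling noise (chi-square per degree of freedom 12.6 to 108).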

Additional observations from a re-analysis of the deposited data

How the results depend on the processing

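The direction of the 9 genes in homozygous KO was fixed by how they were chosen, so only sizes are described. Over the alternatives run, their log2 fold changes in homozygous KO ran from −5.53 to −4.79 for Fam163b, −3.88 to −2.94 for Lrig1 and −2.51 to −2.33 for Cldn4. In heterozygous KO, Lrig1 went from −0.60 to −0.16 with animal number, −1.20 with Xist and −0.99 without heterozygous KO 1. Fam163b went from −0.53 to −0.25, −1.04 and −0.82 in the same 3 fits. Over all alternatives run, Ly6d ran from −0.20 to 0.30, Scara3 from −0.33 to 0.21 and Cldn4 from −0.52 to −0.37. Genes called lower in heterozygous KO were 0, and 43 with DESeq2 and 3 with the replicate block. Genes called lower in homozygous KO were 2584, and 1623 with only the wild types of 1 wt word as controls and 3506 with library totals alone. Genes called between animal numbers were 1320, and 2279 with DESeq2, 10 with the replicate block, and 365 (without wild type 4) to 1444 with one library left out, with 489 without homozygous KO 1, 671 without heterozygous KO 2 and 778 without heterozygous KO 3. Between wild-type title forms 0 genes were called, and 12 with DESeq2, 1 with no filter and 0 to 2 with one library left out. Neighbours called were 8, and 4 with either wild-type pair alone. Relatives called ranged from 23 to 29. The cause of these shifts was not tested.

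Replicate numbers did not pair the libraries: the correlation of same-numbered deviations ran from −0.0958 to 0.211. With the replicate block, 2622 genes were called lower in homozygous KO, 27 relatives and 8 neighbours were called, and wild type 4 was alone in its block. Under it Lrig1 (adjusted p = 0.775) and Fam163b (0.841) lost their edgeR calls between animal numbers. St6gal1 was called there only with no filter (0.0317), Cacna1e only without heterozygous KO 1 (0.0177) and Wdfy4 only with DESeq2 (0.0396). Depth limits Fam163b and Scara3 most, which rested on 9 to 57 counts a library in homozygous KO.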

Other observations

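The fold changes of the 9 genes were shared by others. Of 19511 tested genes, 203 lay inside their ranges for both homozygous KO (log2 fold change −5.09 to −2.41) and heterozygous KO, of which 194 were not among the 9. Of these, 29 also reached 6.76 CPM in wild type, the level of the lowest of the 9. The most abundant were Hspg2, Samhd1, Bach2 and Ccr7, given without a test because their pattern chose them. Hspg2, which encodes the basement membrane proteoglycan perlecan, averaged 76.0 ± 6.87 CPM (SD, n = 4) in wild type and 14.2 ± 5.97 CPM (n = 3) in homozygous KO. Samhd1, a dNTP hydrolase, averaged 61.7 ± 8.92 and 10.8 ± 5.42 CPM. Bach2, a transcriptional repressor of lymphocyte differentiation, averaged 49.3 ± 4.17 and 8.46 ± 0.614 CPM. Ccr7, a chemokine receptor of mature thymocytes and dendritic cells, averaged 40.4 ± 10.9 and 5.15 ± 6.77 CPM, and homozygous KO library 1, at 13.0 CPM, stood apart from the other two at 1.35 and 1.14 CPM.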
